A study of Drosophila melanogaster with 9 samples.

Results

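The genes described here were 9 Drosophila melanogaster genes of the SREBP pathway and of lipid synthesis: SREBP, SCAP, AcCoAS, ATPCL, ACC, FASN2, Desat1, Lpin and mdy. They were listed by their FlyBase symbols, with earlier results of these data known, and were matched to 9 of the 15682 gene identifiers in the count tables. All 9 members were among the 10088 genes with enough counts to be tested. RNA was sequenced from dissected midguts of virgin females of w1118 background, in 3 groups of 3 libraries with 30 midguts each. The control group was labelled wild type, and the mutant group carried a mutation of transformer (tra), the splicing regulator of female somatic identity. The third group, called the rescue here, was tra mutant and expressed the female form of tra under the escargot (esg) driver, which is active in intestinal stem cells and their enteroblast daughters. In the rescue, tra was therefore returned to progenitors of a gut that was otherwise mutant. The labels name no tra allele and do not say whether the controls carried the driver. All groups are labelled as 15 days old. Flies of all groups grew up at 18 °C, stayed there for 3 days as adults and spent 10 days at 29 °C, the phase in which the transgene is induced.

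SREBP is a membrane-bound transcription factor of the endoplasmic reticulum, which the escort protein SCAP carries to the Golgi to be cut by the proteases S1P and S2P. In flies, which do not make sterols, processing of SREBP is controlled by phosphatidylethanolamine and fatty acids, and the released factor activates genes that make acetyl-CoA, fatty acids and glycerolipids. ATPCL and AcCoAS make acetyl-CoA from citrate and acetate, ACC turns it into malonyl-CoA, fatty acid synthases such as FASN2 build the chain, and Desat1 puts in a double bond. Lpin and mdy then act on the path to triacylglycerol, the lipid stored in enterocyte droplets.

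Gene counts per library ranged from 84839470 to 108455374. tra, read as a check of the labels, had 821, 650 and 742 counts in the controls. The mutant libraries held 1, 2 and 1 tra counts and the rescue libraries 756, 472 and 294. Markers of enterocytes, the absorptive cells of the midgut, were present in every library, with a summed level of 26009 to 48118 CPM over 8 genes. CPM is a gene's count scaled to the total gene count of its library, after TMM normalization. Control replicate 3 stood apart on the first principal component (-64.2, with -34.6 and -34.5 for the other controls), and its members' values are given beside the results. The summed level of 11 visceral muscle markers was 2845 to 3249 CPM in control, 2019 to 2436 CPM in the mutant and 2037 to 2805 CPM in the rescue. Of these 11 genes, edgeR called 0 in mutant against control, with 5 lower and 0 higher at an unadjusted p below 0.05. At that unadjusted threshold 1292 of the 10088 genes tested were lower and 1131 higher. Of 8 progenitor markers listed 5 were matched to the tables, and esg, Dl and hdc were not. These 5 summed to 53.9 to 108 CPM in control, to 50.2 to 70.2 CPM in the mutant and to 49.1 to 60.1 CPM in the rescue. The highest control sum was in replicate 3, where Sox21a alone was at 54.1 CPM, with 8.55 and 15.8 CPM in the other controls. Enteroendocrine markers summed to 650 to 824, 804 to 920 and 933 to 1031 CPM over 12 genes. Of these 12, edgeR called Tk higher and Orcokinin lower in mutant against control. In rescue against control it called 4 higher (pros, Tk, AstA and Dh31) and 0 lower, where 4.79% of all genes tested were called higher. From mutant to rescue it called 0. The part of these differences in the results below was not tested.

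The members spanned a wide range of levels. Per kilobase of exon, Desat1 was highest in control midguts at 330 ± 124 CPM per kb (mean ± SD, n = 3), above every other member in each library. AcCoAS at 79.1 ± 19.7, Lpin at 69.9 ± 13.99, SREBP at 59.6 ± 11.02 and ATPCL at 52.8 ± 13.3 CPM per kb followed, and neighbours in this order overlapped between libraries. ACC was lower at 17.0 ± 3.99 CPM per kb, then SCAP at 6.32 ± 0.465 and mdy at 5.09 ± 1.83, a pair that overlapped. FASN2 was the lowest member at 0.332 ± 0.119 CPM per kb. In the mutant AcCoAS reached 124 ± 12.2 CPM per kb and overlapped Desat1 at 151 ± 24.4, so that the most abundant member no longer stood clear of the next. The spread between control libraries was wide for most members, with a coefficient of variation of 7.36% for SCAP and 18.5% to 37.7% for the other members.

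**Figure D1:**
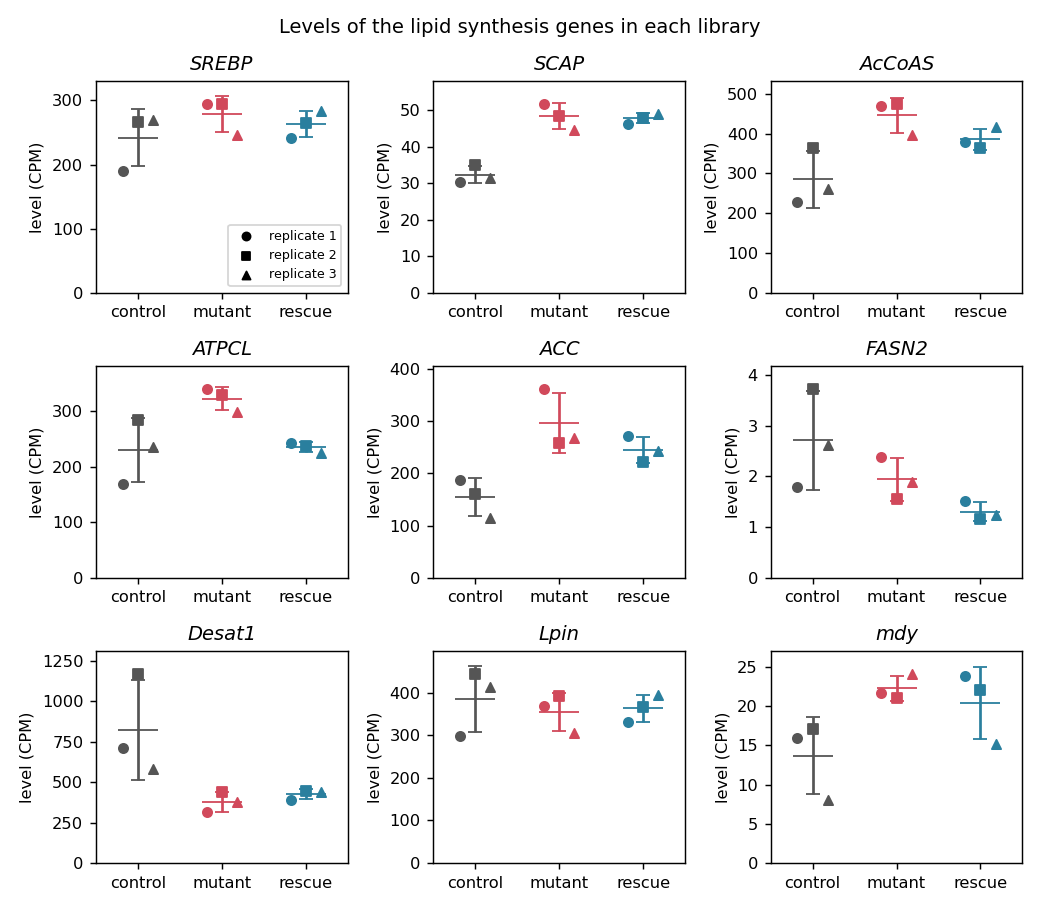
Level of each of the 9 genes in CPM (y axis, from 0) in control, mutant and rescue midguts (x axis). Points are single libraries with a symbol for each replicate number, and the bar with its whiskers is the mean ± SD of 3 libraries. SCAP and ACC are higher in all mutant libraries than in all controls, and Desat1 is lower.

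The first question was what the female midgut looked like without tra. Among the 9 members, SCAP and ACC rose, Desat1 fell and 6 did not pass the test. Over all 10088 genes, 6.67% were called in this comparison, 3.66% as higher and 3.01% as lower, where called means an edgeR adjusted p under 0.05. The members' median log2 fold change was 0.49, beside -0.03 for all genes tested. With 9 genes chosen with earlier results of these data known, this count is a description and no test of the list. Leaving out mutant replicate 1 or 3 left 1 member called, SCAP.

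SCAP (FBgn0033052, chromosome arm 2R), the escort of SREBP, measured 30.4, 35.0 and 31.5 CPM in control and 51.8, 48.4 and 44.6 CPM in the mutant. Every mutant library was above every control library, control replicate 3 lying between the other controls. The rise was 1.49-fold, a log2 fold change of 0.58 ± 0.10 (SE; 95% interval 0.35 to 0.80; edgeR adjusted p = 0.00931). The SCAP call held in 17 of 17 alternatives, with an edgeR or DESeq2 adjusted p of at most 0.0407. It was lost with the 6 libraries alone and the replicate number as a block (0.58, edgeR adjusted p = 0.072), a fit added after the data were seen.

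SREBP itself (FBgn0261283, 3L), the transcription factor, measured 190, 266 and 269 CPM in control and 294, 295 and 246 CPM in the mutant. The groups overlapped, control replicate 1 being low, and the difference did not pass (0.20, 95% interval -0.16 to 0.56, edgeR adjusted p = 0.471). The interval thus reaches close to the SCAP estimate of 0.58. The proteases that release SREBP showed means close to control. S1P had a mean of 15.7 ± 0.826 CPM in the controls and of 17.2 ± 1.48 CPM without tra (edgeR adjusted p = 0.517), and S2P 13.7 ± 1.73 and 13.9 ± 1.41 CPM (edgeR adjusted p = 0.95). Messenger RNA levels do not show how much SREBP protein was cut.

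ACC (FBgn0033246, 2R), which encodes acetyl-CoA carboxylase, the committed step of fatty acid synthesis, measured 186.4, 161.1 and 115.035 CPM in control. In the mutant it measured 362, 258 and 268 CPM. The lowest mutant library was above the highest control, and control replicate 3 was the lowest of all. The rise was 1.92-fold (0.94 ± 0.20, 95% interval 0.49 to 1.39, edgeR adjusted p = 0.0241). Without control replicate 3 it was 0.78 and still called. The call was lost without control replicate 2, mutant replicate 1 or mutant replicate 3, and with the 6 libraries alone, where the edgeR adjusted p was 0.0507 to 0.0895.

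The enzymes that supply ACC with acetyl-CoA did not pass. AcCoAS (FBgn0012034, 3L), acetyl-CoA synthetase, measured 229, 365 and 262 CPM in control and 469, 476 and 396 CPM in the mutant. The mutant libraries were all higher, with control replicate 2 nearest to them, and the log2 fold change was 0.65 (95% interval 0.24 to 1.06, edgeR adjusted p = 0.0637). AcCoAS passed with DESeq2 (adjusted p = 0.013), with library totals in place of TMM (edgeR adjusted p = 0.0256) and without control replicate 2 (0.87, edgeR adjusted p = 0.0166).

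ATPCL (FBgn0020236, 2R), ATP citrate lyase, measured 169, 284 and 235 CPM in control and 340, 329 and 299 CPM in the mutant. These groups did not overlap either, although control replicate 2 came close, and the difference was 0.49 on the log2 scale (95% interval 0.10 to 0.89, edgeR adjusted p = 0.126). ATPCL shares 6.45% of its exon length with genes on the other strand, and the strand setting of the counting is not given in the sources used here.

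FASN2 (FBgn0042627, 2L), a fatty acid synthase gene with low expression in the gut, measured 1.79, 3.73 and 2.61 CPM in control and 2.39, 1.55 and 1.89 CPM in the mutant. The groups overlapped (-0.48, 95% interval -1.13 to 0.17, edgeR adjusted p = 0.349). The other fatty acid synthase genes, FASN1 and FASN3, were not analysed here. FASN2 is best known from oenocytes, the cuticle-associated cells that make hydrocarbons. Of 5 oenocyte markers 4 were matched to the tables, and their summed level was 54.7 CPM in control replicate 2, the library highest in FASN2, and 6.98 to 19.5 CPM in the other 8 libraries. Cyp4g1, the oenocyte cytochrome P450, was at 36.4 CPM in control replicate 2 and at 0.0981 to 12.3 CPM elsewhere, while the desaturase Fad2 was at 3.70 CPM there and at most 0.0669 CPM elsewhere. The part of these transcripts in the FASN2 level was not tested. Without control replicate 2 the FASN2 difference was -0.18.

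Desat1 (FBgn0086687, 3R), the main acyl-CoA delta-9 desaturase, went the other way. It measured 710, 1169 and 582 CPM in control and 315, 436 and 375 CPM in the mutant. Every mutant library was below the lowest control, which was replicate 3, and control replicate 2 stood far above the rest. The mean fell from 820 ± 309 to 375 ± 60.7 CPM, or -1.13 ± 0.25 on the log2 scale (95% interval -1.69 to -0.57, edgeR adjusted p = 0.027). Without control replicate 2, the library with the oenocyte transcripts, the difference was -0.78 and was still called with edgeR. In bulk tissue, fewer cells of a type and less RNA per cell cannot be told apart.

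The Desat1 call was not stable to the loss of libraries. It was lost without any 1 mutant library, without rescue replicate 2 and with the 6 libraries alone, with edgeR adjusted p from 0.0515 to 0.108, while the log2 fold change stayed between -1.31 and -0.78 over 17 alternatives. With the 6 libraries and the replicate block the edgeR adjusted p was 0.0507. The fat body, a tissue that lies against the gut, is rich in lipogenic enzymes. Its 14 markers summed to 104, 75.0 and 21.9 CPM in control, 9.39 to 14.7 CPM in the mutant and 15.1 to 47.7 CPM in the rescue. Of 12 fat body markers tested in mutant against control, 4 fell and 0 rose, where 3.01% of all genes tested were called lower. Those that fell were Lsp1gamma and the yolk protein genes Yp1, Yp2 and Yp3, which are also targets of the sex determination pathway. Without the yolk protein genes the sums were 23.0, 21.1 and 12.4 CPM in control, 8.999 to 13.7 CPM in the mutant and 14.5 to 46.9 CPM in the rescue, and the control and mutant sums overlapped. The part of fat body RNA in the Desat1 result was not tested.

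**Figure D2:**
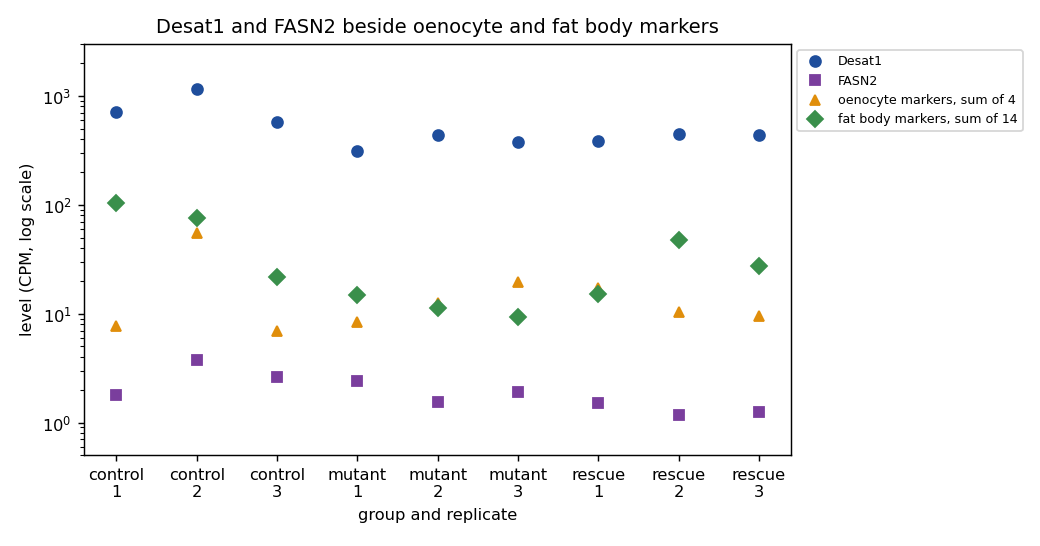
Desat1, FASN2, the sum of 4 oenocyte markers and the sum of 14 fat body markers in each of the 9 libraries (x axis), in CPM on a log axis. The oenocyte sum is high in control replicate 2 alone, at 54.7 CPM, and Desat1 and FASN2 are highest in that library.

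The genes of the last steps did not pass. mdy (FBgn0004797, 2L), the fly diacylglycerol acyltransferase of the DGAT1 type, which makes triacylglycerol, measured 16.0, 17.0 and 8.02 CPM in control and 21.7, 21.0 and 24.1 CPM in the mutant. The groups did not overlap, control replicate 3 being far the lowest (0.71, 95% interval 0.11 to 1.30, edgeR adjusted p = 0.138). Without control replicate 3 the mdy difference was 0.44. Lpin (FBgn0263593, 2R), the phosphatidate phosphatase that makes diacylglycerol, measured 298, 444 and 414 CPM in control and 368, 392 and 305 CPM in the mutant. The Lpin groups overlapped (-0.12, 95% interval -0.51 to 0.28, edgeR adjusted p = 0.717), and 10.9% of Lpin exon length is shared with kermit on the same strand.

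In all, 5 members were higher in every mutant library than in every control library (SCAP, ACC, AcCoAS, ATPCL and mdy), 1 was lower (Desat1) and 3 overlapped. Over all genes tested 25.6% did not overlap, 12.7% higher and 12.9% lower. At an unadjusted edgeR p below 0.05 the members numbered 5 higher and 1 lower, beside 1131 higher and 1292 lower of the 10088 genes tested.

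**Figure D3:**
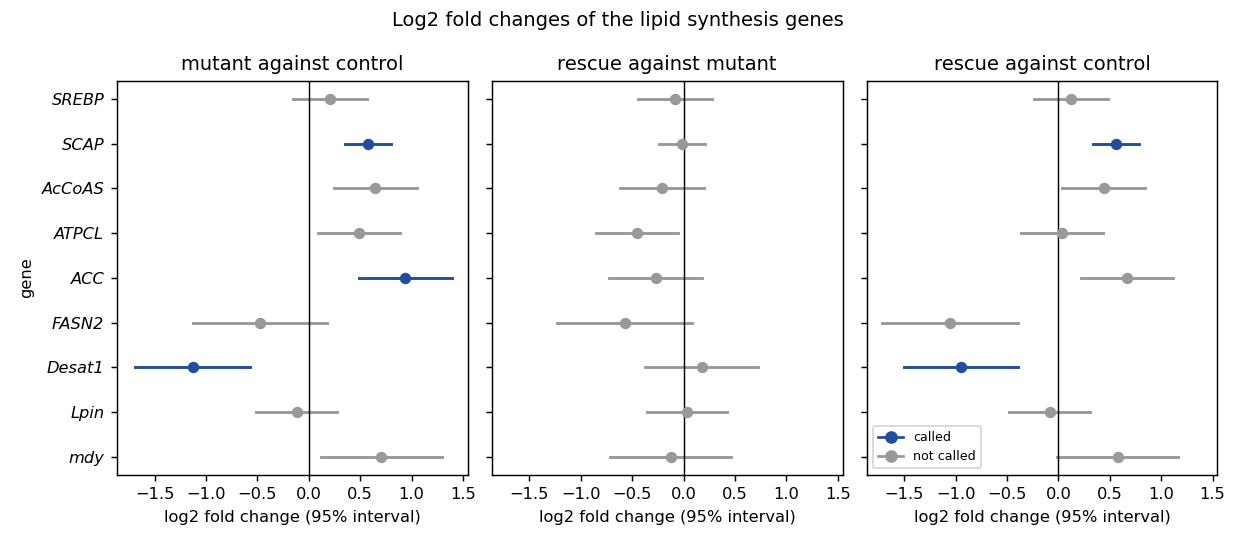
Log2 fold changes (x axis) of the 9 genes (y axis) in the 3 comparisons, with 95% intervals from the edgeR fit that are not adjusted for the number of genes. Blue marks genes called at an adjusted p under 0.05. In the middle panel, rescue against mutant, none of the 9 is called.

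The rescue was then set against the mutant, which bears on expression of tra in progenitor cells. None of the 9 members was called with edgeR or with DESeq2 (0 of 9 each), and at an unadjusted edgeR p under 0.05 ATPCL alone was lower and 0 were higher. At that unadjusted threshold 218 of the 10088 genes tested were lower and 293 higher. Over all genes tested 0.466% were called, 0.188% as higher and 0.278% as lower. The members' median log2 fold change was -0.13, beside -0.00255 for all genes.

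ATPCL was the member nearest to a change. It measured 243, 237 and 225 CPM in the rescue, all below the mutant's 299 to 340 CPM and within the range of the controls. The log2 fold change from mutant to rescue was -0.46 (95% interval -0.85 to -0.06, edgeR adjusted p = 0.838). FASN2, at 1.52, 1.16 and 1.24 CPM in the rescue, was also below every mutant library (-0.57, 95% interval -1.23 to 0.09, edgeR adjusted p = 0.999). Thus 2 members did not overlap, both lower in the rescue. Of all genes tested 12.2% did not overlap, 6.84% lower and 5.32% higher.

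The members called in mutant against control did not pass in rescue against mutant, and their intervals in that comparison differ in width. SCAP measured 46.4, 47.9 and 49.0 CPM in the rescue, and its difference from the mutant was -0.02 with a 95% interval of -0.24 to 0.21, an interval that does not reach the size of the mutant's rise. ACC measured 271, 221 and 243 CPM in the rescue (-0.27 from the mutant, 95% interval -0.72 to 0.18). Rescue replicates 2 and 3 were below every mutant library for ACC, and all 3 were above every control. Desat1 measured 389, 446 and 439 CPM, 0.18 above the mutant (95% interval -0.37 to 0.73), below the lowest control at 582 CPM. AcCoAS at 378, 365 and 416 CPM, SREBP at 242, 264 and 284 CPM, mdy at 23.9, 22.1 and 15.3 CPM and Lpin at 330, 366 and 394 CPM overlapped the mutant libraries.

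The comparison of rescue with control shares its control libraries with the first comparison, so the values are set side by side and are not independent of it. SCAP was higher by 0.56 ± 0.10 (edgeR adjusted p = 0.00953, called in 17 of 17 alternatives), beside 0.58 in the mutant. With the 6 libraries and the replicate block it was not called (0.57, edgeR adjusted p = 0.0515). Desat1 fell, by -0.95 ± 0.25 against -1.13 in the mutant, with an edgeR adjusted p = 0.0417. Leaving out control replicate 2 (-0.61), or any 1 mutant or rescue library, ended this call, as did the 6 libraries alone, with edgeR adjusted p up to 0.147. ACC, at 0.67, did not pass (edgeR adjusted p = 0.067), although DESeq2 called it (0.0118). FASN2, at -1.05, did not pass either (edgeR adjusted p = 0.0544). DESeq2 called FASN2 (0.00764), and its log2 difference was -0.75 without control replicate 2. Thus 1 member rose and 1 fell, where 9.44% of all genes tested were called, 4.79% higher and 4.65% lower. SCAP, ACC and AcCoAS were higher in every rescue library than in every control and FASN2 and Desat1 lower, 5 of 9 members, where 31.4% of all genes did not overlap. For AcCoAS the groups barely separated, with the lowest rescue library at 364.8 CPM and the highest control at 364.6 CPM. SCAP alone was called when any 1 mutant or rescue library was left out, while without control replicate 1 the number was 4, with ACC and FASN2 added.

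Other genes of the pathway were read from 7 lists. Their counts are to be read against the shares called over all genes tested, 3.66% higher and 3.01% lower in mutant against control and 4.79% and 4.65% in rescue against control. The genes that supply citrate, pyruvate and NADPH, the reducing power of fatty acid synthesis, were called higher where they were called. Of 9 tested in mutant against control, 4 rose, 0 fell and 5 did not pass, with a list median of 0.75 on the log2 scale, where 3.66% of all genes were called higher. Those that rose were Men-b, Zw, Pgd and Taldo. Without mutant replicate 1 or mutant replicate 2 the number was 2, Men-b and Zw. The 5 that did not pass were Men, Idh and the citrate and pyruvate genes kdn, sea and Mpc1. Idh, kdn, sea and Mpc1 were not called in the main test of any comparison. In control and mutant kdn measured 935 ± 180 and 736 ± 191 CPM and sea 21.5 ± 5.43 and 27.4 ± 10.8 CPM. Mpc1 measured 119 ± 41.0 and 123 ± 20.5 CPM and Idh 1251 ± 516 and 2080 ± 450 CPM.

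Men-b, a malic enzyme that yields NADPH, rose from 331 ± 41.6 to 2098 ± 589 CPM, 6.34-fold (2.66 ± 0.26, edgeR adjusted p = 0.000479). Zw, glucose-6-phosphate dehydrogenase at the entry of the pentose phosphate pathway, rose from 41.5 ± 4.85 to 120 ± 9.98 CPM (1.53 ± 0.14, edgeR adjusted p = 0.000393). Pgd, the next NADPH-yielding enzyme of that pathway, rose from 158 ± 19.7 to 265 ± 41.6 CPM (0.75 ± 0.17, edgeR adjusted p = 0.0326). Pgd did not pass when control replicate 1 or 3, mutant replicate 1 or 2 or rescue replicate 3 was omitted, or in the fit of 6 libraries, where the edgeR adjusted p was 0.0569 to 0.106. Nor did it pass with the 6 libraries and the replicate block (0.0624). Taldo, transaldolase of its non-oxidative branch, rose from 159 ± 28.5 to 324 ± 50.3 CPM (1.03 ± 0.20, edgeR adjusted p = 0.0169). Men, another malic enzyme gene, measured 211 ± 59.2 and 401 ± 95.6 CPM (edgeR adjusted p = 0.064). DESeq2 called Men (0.00778), as did edgeR with library totals (0.0252), with the replicate block (0.00923), with the 6 libraries and that block (0.0351) and without control replicate 2 (0.0366). Zw shares 16.4% and Pgd 5.49% of exon length with genes on the other strand.

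From mutant to rescue 0 of the 9 supply genes were called with edgeR or DESeq2, and 0 had an unadjusted edgeR p below 0.05. In the rescue Men-b was at 2442 ± 566 CPM and Zw at 125 ± 16.7 CPM, and 5 of 9 were called higher than control, the 4 above and Men (1.01 ± 0.26, edgeR adjusted p = 0.0414). Without rescue replicate 2 or rescue replicate 3 the number was 3. The Men call in rescue against control was lost with the 6 libraries alone (edgeR adjusted p = 0.0731). Omitting control replicate 1 or 3, mutant replicate 1 or 3, or rescue replicate 2 or 3 also ended it, with values up to 0.131.

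The next list held genes of fatty acid synthesis, elongation and desaturation. Of 30 genes listed, 28 were in the tables and 16 had enough counts. Of these 4 fell, 0 rose and 12 did not pass in mutant against control, with a median of -0.37, where 3.01% of all genes were called lower. All 4 were called lower in the rescue than in control as well, and 2 without rescue replicate 3. Desat2, a desaturase close in sequence to Desat1, fell from 8.55 ± 3.12 to 3.50 ± 0.315 CPM (-1.29 ± 0.26, edgeR adjusted p = 0.02). CG8630 (3.72 ± 0.710 to 1.36 ± 0.182 CPM, edgeR adjusted p = 0.00446) and CG15531 (1.88 ± 0.738 to 0.741 ± 0.101 CPM, edgeR adjusted p = 0.0299) belong to the same desaturase family. bond, an elongase of very long chains, fell from 8.15 ± 0.931 to 4.21 ± 0.298 CPM (-0.95 ± 0.15, edgeR adjusted p = 0.00594).

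These were genes of low level. A pair of abundant genes of the list was picked after their values were seen. The strongly expressed desaturase-like gene CG9743 measured 614 ± 113 and 497 ± 33.6 CPM (edgeR adjusted p = 0.283), and the elongase Baldspot 269 ± 131 and 158 ± 39.4 CPM (edgeR adjusted p = 0.197). Without control replicate 2 or any 1 mutant library 2 genes of this list were called lower, and without control replicate 1 the number was 6. With the 6 libraries and the replicate block Desat2 (edgeR adjusted p = 0.0529) and CG15531 (0.0608) were not called. From mutant to rescue 0 of 16 were called with edgeR or DESeq2, and 0 had an unadjusted edgeR p below 0.05. Desat2 and bond share 6.04% and 9.57% of exon length with genes on the other strand.

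**Figure D4:**
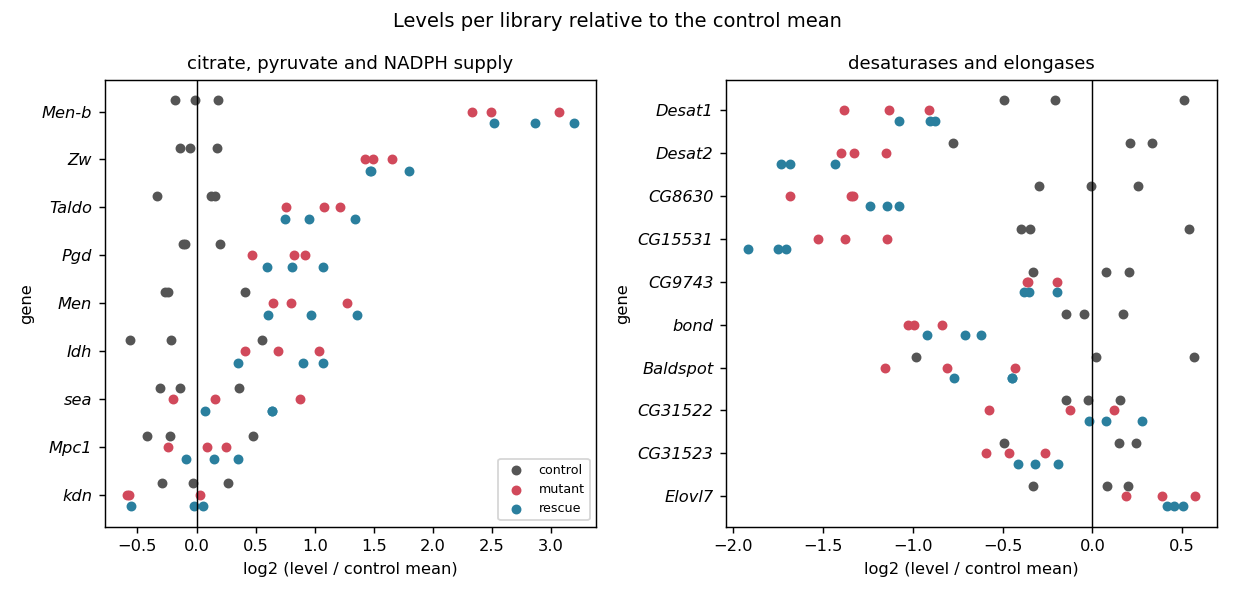
Log2 ratio of each library's level to the control mean (x axis) for the genes of citrate, pyruvate and NADPH supply (left) and for Desat1 with other desaturases and elongases (right), one point a library, coloured by group. Men-b and Zw stand far to the right in all mutant and rescue libraries, while Desat2, CG8630, CG15531 and bond lie to the left.

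Among other lipogenic regulators, 1 of 8 rose in the mutant and 0 fell. Mondo, the sugar-sensing transcription factor related to mammalian ChREBP, rose from 202 ± 80.2 to 471 ± 60.0 CPM (1.22 ± 0.27, edgeR adjusted p = 0.0269). This call did not hold with the 6 libraries alone, without any 1 mutant library or without control replicate 1, up to an edgeR adjusted p of 0.0933, nor with the 6 libraries and the replicate block (0.0801). In the rescue Mondo was at 565 ± 68.7 CPM (1.48 ± 0.27 above control, edgeR adjusted p = 0.0106). Its partner bigmax had a mean of 35.1 ± 5.89 CPM in control, 24.4 ± 2.43 in the mutant and 21.7 ± 4.43 in the rescue, and was called lower in rescue against control (edgeR adjusted p = 0.0393, up to 0.122 over the alternatives). Another gene of this list, sug, was picked after its values were seen. It had a mean of 149 ± 41.4 CPM in control, 76.6 ± 11.8 in the mutant and 81.7 ± 41.7 in the rescue. Every mutant library was below every control for sug, and it was not called in any comparison.

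The glycerolipid assembly list and the droplet list each held 1 gene called in mutant against control, where 6.67% of all genes were called. Of 11 glycerolipid assembly genes 1 fell in the mutant, Gpo1, the mitochondrial glycerol-3-phosphate dehydrogenase, which oxidises glycerol-3-phosphate (110 ± 41.7 to 36.1 ± 1.28 CPM, -1.61 ± 0.24, edgeR adjusted p = 0.00468). The acyltransferases of the first step, mino (53.4 ± 24.8 and 38.1 ± 6.73 CPM, edgeR adjusted p = 0.351) and Gpat4 (434 ± 77.5 and 360 ± 29.3 CPM, edgeR adjusted p = 0.33), did not pass. Dgat2, a second diacylglycerol acyltransferase gene beside mdy, measured 13.3 ± 6.72 and 12.4 ± 1.23 CPM (edgeR adjusted p = 0.888).

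Of 7 droplet and lipolysis genes 1 fell in the mutant, the perilipin gene Lsd-1, whose product coats lipid droplets (56.0 ± 18.0 to 25.0 ± 4.41 CPM, -1.16 ± 0.24, edgeR adjusted p = 0.0225). Leaving out mutant replicate 2 or 3 brought the number to 0, as did the 6 libraries with the replicate block (Lsd-1 edgeR adjusted p = 0.0551). In the rescue against control 2 fell, Lsd-1 (edgeR adjusted p = 0.0485) and Seipin, which acts in droplet formation (99.8 ± 23.9 and 64.8 ± 2.65 CPM, edgeR adjusted p = 0.0443). Both of these calls were lost with RLE factors, with a filter of 1 CPM, with the 6 libraries alone and without any 1 library other than control replicate 3, with edgeR adjusted p up to 0.155 over the alternatives. In the mutant Seipin was at 65.2 ± 6.86 CPM, every library below every control, without a call in the main test. Alternatives that called it in mutant against control were upper-quartile factors (edgeR adjusted p = 0.0444), library totals (0.026) and the replicate block (0.04). Omission of control replicate 3 (edgeR adjusted p = 0.0217) and DESeq2 (adjusted p = 0.0166) did so as well.

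Of 10 tested acyl-CoA synthetases and binding proteins 1 fell in the mutant, Acbp6, an acyl-CoA binding protein gene with 160 CPM in control replicate 3 and 21.4 and 39.5 CPM in the other controls (11.4 ± 1.36 CPM in the mutant, edgeR adjusted p = 0.0454). The Acbp6 call was lost without control replicate 3, where the log2 fold change moved from -2.69 to -1.41. The block on replicate numbers ended it as well, as did the fit of 6 libraries and the loss of any 1 mutant library or of rescue replicate 1 or 2. In rescue against control 2 fell, Acbp6 and pdgy, an acyl-CoA synthetase gene (51.4 ± 17.3 and 22.7 ± 3.39 CPM, edgeR adjusted p = 0.0355, up to 0.123 over the alternatives).

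Of 9 tested phospholipid genes 1 rose in the mutant, Pisd, phosphatidylserine decarboxylase, an enzyme that makes phosphatidylethanolamine (19.2 ± 2.39 to 27.7 ± 2.60 CPM, 0.53 ± 0.13, edgeR adjusted p = 0.0406). Pisd was called in 8 of 17 alternatives, with an edgeR adjusted p up to 0.123, and not with the 6 libraries and the replicate block (0.0638). From mutant to rescue none of the genes of the 7 lists was called with edgeR, where 1 was higher and 1 lower at an unadjusted p below 0.05. Of the 10088 genes tested, 293 were higher and 218 lower at that unadjusted threshold.

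The genes whose profile over the 9 libraries was most like that of a called member were found by the root mean square difference of mean-centred log2 CPM. For SCAP, whose own profile had a root mean square of 0.28, these were CG6420 (0.0527) and cact (0.0632), an inhibitor of Toll signalling, at 94.2 ± 6.68, 131 ± 3.57 and 130 ± 6.01 CPM in control, mutant and rescue. For ACC they were Pgm1 (0.12), phosphoglucomutase, and CG8132 (0.128), and for Desat1 CAH7 (0.112), a carbonic anhydrase gene, and CG13024 (0.142). Among the members, the profile nearest to SCAP was AcCoAS (0.148) and the nearest to ACC was SCAP (0.265), followed closely by mdy (0.27). The nearest to Desat1 was FASN2 (0.483), with Lpin at 0.502. The own profiles of ACC and Desat1 had root mean squares of 0.459 and 0.543. The FASN2 distance was thus close to the size of the Desat1 profile itself.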

How the data were processed

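RNA was extracted from 30 midguts per replicate, and libraries were made from 500 ng with a stranded mRNA kit and read from both ends over 100 bases, per the labels. Each deposited table holds whole-number, unnormalized counts by gene. TopHat2 2.0.11, HTSeq and dm3 appear in the submitters' processing notes. How HTSeq was set for strand and overlaps is not given in the sources used here. Lines without a gene (14.6% to 22.9% not uniquely aligned, 1.30% to 1.83% outside any gene and 0.822% to 1.09% ambiguous) entered neither library sizes nor tests.

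Symbols came from the reference name table, and exon lengths and overlaps from Ensembl BDGP6, another build than dm3, so no coordinates are given and levels per kilobase are approximate. The test was edgeR 4.0.16 under R 4.3.3 (filterByExpr at 10 counts per gene and 15 in total, TMM, a quasi-likelihood fit with a mean per group over all 9 libraries, Benjamini-Hochberg adjustment over 10088 genes, threshold 0.05). SE and 95% intervals were derived from the F statistic. The test was checked on counts simulated from its own fitted spread, which does not show how well that model describes these libraries. Alternatives were RLE, upper-quartile and no scaling factors, no filter, 1 CPM in 3 libraries, DESeq2 1.42.0, the replicate block, a fit of only the 6 libraries in a comparison, and omission of each library. At the shallowest depth, 3 counts are 0.0354 CPM before TMM scaling.

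The members, lists and alternatives were chosen with earlier results of these data known. Named were all members, list genes called in any comparison, all citrate, pyruvate and NADPH supply genes and SREBP's proteases. Also named were relatives of the members, first-step acyltransferases and the 2 genes most like each called member. Nothing in the labels says that replicates came from separate cultures. The p-values then reflect the spread of these libraries alone, and that spread may be technical. The sample titles number the replicates within each group and state no pairs across groups. Same-numbered control and mutant libraries deviated together (r = 0.17 to 0.204 across genes). The main test had no term for the replicate number and so did not use this likeness. For mutant and rescue r was -0.237 to 0.0964 and for control and rescue 0.0237 to 0.25, so those groups were not read as pairs.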

Additional observations from a re-analysis of the deposited data

How the results depend on the processing

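No called member changed sign in a comparison where it was called. Over 459 member values, 17 alternatives for each member and comparison, 433 kept their side of the threshold, 17 calls were lost, 9 were gained and 0 reversed. Sign changes of values without a call were not counted as reversals. SREBP in rescue against control, for example, went from 0.12 to -0.02 without control replicate 1. For other named pathway genes, 101 calls of 1122 values were lost, 9 were gained and 0 reversed. In mutant against control 3 members were called, 1 with the 6 libraries alone, 1 with these and the replicate block (ACC, added after seeing the data), and 1 to 3 when single libraries were left out. In rescue against control 2 members were called, 4 with DESeq2, 1 with the 6 libraries alone, 0 with these and the replicate block, and 1 to 4 without single libraries. In rescue against mutant 0 members were called under every alternative run.

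Over all genes, mutant against control gave 673 calls, 1354 with DESeq2, 416 with the 6 libraries, 379 with these and the replicate block, 759 with the replicate block over 9 libraries, and 329 to 758 without single libraries. Rescue against mutant gave 47, 127 with DESeq2 and 21 to 71 without single libraries. Rescue against control gave 952, 1740 with DESeq2, 494 with the 6 libraries, 479 with these and the replicate block, and 360 to 974 without single libraries. Fits with fewer libraries have fewer degrees of freedom; otherwise the cause was not tested. The replicate block over 9 libraries called ACC in rescue against control (0.69, edgeR adjusted p = 0.0337), lost Acbp6, bigmax and pdgy, and assumes pairs that the check did not show for the rescue. FASN2, with 97 to 351 counts a library, is the member that depth limits most.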

Other observations

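The following genes were picked after their values were seen. Several desaturase and elongase genes were at or near 0 in these midguts. CG17821, CG30008 and CG31141 had 0 counts in all 9 libraries, which allows up to 0.0277 to 0.0354 CPM per library before TMM scaling, for counting error only. eloF, an elongase of oenocytes, was at 0.691 CPM in control replicate 2 and at most 0.0105 CPM in the other 8 libraries, the same library in which Fad2 and Cyp4g1 were high. CG9747, a desaturase-like gene, was at 0.0687, 0.240 and 0.718 CPM in the rescue and at 0 to 0.199 CPM in control and mutant, without passing in any comparison.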
